A study of Mus musculus with 10 samples.

Results

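The genes described here are 10 transcription factors that give the midbrain, hindbrain and their border their identity: Otx1, Otx2, En1, En2, Pax2, Pax5, Pax6, Pax8, Lmx1a and Lmx1b. They were chosen by symbol, not by a cut on measured values, from the 49671 genes of the deposited count table. Earlier results of these data were known when they were chosen. All 10 had a row in the table, and 9 had enough counts to be tested. Pax8 did not, with 63 counts over all libraries. RNA was read in 10 libraries of GFP-positive cells sorted from mouse embryos of day 10.5, with a separate embryo for each library, on a mixed 129/Sv-C57BL/6 background. All embryos carried Wnt1Cre and the R26mTmG reporter, which turns from red to green fluorescence where the recombinase has acted. The 5 control embryos had wild-type p53 (p53+/+), and the 5 p53_activated embryos carried p53LSL-25,26/+, in which the recombinase releases a stabilized p53 protein from an allele that sits beside a normal copy. The labels name the cells neural crest, but Wnt1-Cre acts in the dorsal neural tube, so neural tube cells of the midbrain and hindbrain can also be green.

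As background, the neural tube of the early embryo is divided along its length by transcription factors with sharp borders. Otx genes mark the forebrain and midbrain and end at the isthmus, the constriction between midbrain and hindbrain. There En and Pax2, Pax5 and Pax8 genes are active and cells secrete Fgf8 and Wnt1, which pattern the tissue on both sides. Lmx1a and Lmx1b are LIM homeobox genes of the roof plate and floor plate, and Lmx1b also acts at the isthmus. Pax6 is known from the forebrain, the eye and the ventral hindbrain and spinal cord, and is largely silent in the midbrain.

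Control libraries held 12368058 to 23514828 counts and p53_activated libraries 14644162 to 28379562. Cdkn1a, the p53 target that encodes p21, read between 5.82 and 9.57 CPM (counts scaled to a common library size) in control libraries and between 90.8 and 117 CPM in p53_activated libraries, so this target followed the labels. Neural crest markers (Sox10, Foxd3, Tfap2a) and pan-neural markers (Sox1, Sox2, Nes) were detected in both groups. Control replicates 1 and 2 stood apart. They were highest in the summed CPM of 11 crest and arch mesenchyme markers (537 and 517 CPM, others 357 to 439 CPM). The same held for 7 nephric markers (81.0 and 58.4 CPM, others 29.8 to 39.3 CPM). Replicates 4 and 5 of the p53_activated group had higher summed epithelial (108 and 92.4 CPM) and eye markers (26.1 and 27.7 CPM) than the other p53_activated libraries (38.1 to 56.3 and 11.5 to 12.9 CPM). Those 2 lay within the range of the controls (68.7 to 162 CPM for epithelial and 18.0 to 29.7 CPM for eye markers), and p53_activated replicates 1 to 3 lay below every control in both sums. Control replicates 4 and 5 were the highest controls in the epithelial sum (160 and 162 CPM, other controls 68.7 to 83.4 CPM). Summed erythroid markers were highest in replicates 4 and 5 of both groups (control 4427 and 4059 CPM, p53_activated 5935 and 2858 CPM). Results are therefore also given without control replicates 1 and 2 and without p53_activated replicates 4 and 5. The latter fit keeps control replicates 4 and 5. In bulk RNA, fewer cells of a type and less RNA per cell cannot be told apart.

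The comparison asks whether a stabilized p53 alters these factors in the sorted cells. None of the 9 tested factors rose or fell at an adjusted p of 0.05 in the quasi-likelihood test of edgeR, where 7.23% of all 14528 tested genes did (4.49% higher and 2.74% lower). All 9 fitted differences were above 0, as were 48.6% of all tested genes. Without control replicates 1 and 2 there were 8 of 9 above 0, and 6 of 9 without p53_activated replicates 4 and 5. The median log2 fold change was 0.38 over the 9 factors and -0.01 over all tested genes. Markers of other cell types lay mostly below 0 in the same comparison, with no call. Of 6 surface epithelium markers 0 were above 0 (median log2 fold change -0.81), of 7 eye markers 1 (-0.35), of 6 erythroid markers 0 (-0.24) and of 4 tested endothelial and macrophage markers 0 (-0.35). Their part in the direction of the regional factors was not tested. For no factor were the groups free of overlap, which was the case for 8.07% of tested genes. At an unadjusted p of 0.05, 1 of the 9 passed with edgeR (Otx2), 2 with DESeq2 and 1 with limma-voom, against 22.6% of all genes with edgeR; the latter tools also called 0 after adjustment. The factors were read in the same libraries and several follow each other across them, so the shared direction is not 9 independent observations.

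**Figure D1:**
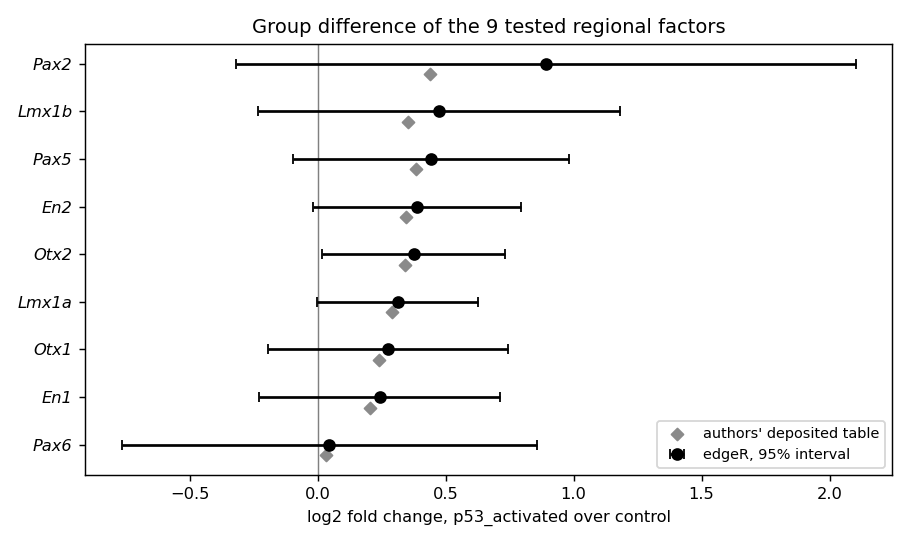
Log2 fold change of the 9 tested regional factors, p53_activated over control (black points, bars are 95% intervals from edgeR, 5 libraries a group) with the value from the authors' deposited table (grey diamonds). All points lie above 0, from 0.05 for Pax6 to 0.89 for Pax2, and the interval lies wholly above 0 for Otx2 alone.

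The authors' deposited table gave the same picture from their own fit. Its log2 fold changes were above 0 for all 10 factors, with a median of 0.32, and 0 of the 9 that had an adjusted p were called, against 10.8% of all genes with one. In the authors' deposited table the largest value was that of Pax2 (0.44) and the smallest that of Pax6 (0.03). The lowest adjusted p in the authors' deposited table was 0.187, for Otx2.

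The Otx pair marks forebrain and midbrain. Otx2 (ENSMUSG00000021848, chromosome 14, 48657677 to 48673819, minus strand, GRCm38), which the anterior head requires, read 15.0, 8.97, 17.4, 14.0 and 12.4 CPM in control replicates 1 to 5 and 16.2, 17.6, 21.2, 17.2 and 16.02 CPM in p53_activated replicates 1 to 5. All but control replicate 3 lay below the lowest p53_activated library. The means were 13.6 ± 3.16 and 17.7 ± 2.09 CPM (SD, n = 5 each). The log2 fold change of Otx2 was 0.38 ± 0.17 (SE, as for all fold changes; edgeR adjusted p = 0.199). The 95% interval of the fold change ran from 1.01 to 1.66. The log2 fold change of Otx2 was 0.26 without control replicate 2 (edgeR adjusted p = 0.378) and 0.27 without control replicates 1 and 2 (0.392). It was 0.49 without control replicate 3 (0.0957) and 0.44 without p53_activated replicates 4 and 5 (0.241). Without control replicate 2, 0 of the 9 factors had an unadjusted edgeR p under 0.05. Otx1 (ENSMUSG00000005917, chromosome 11, 21994764 to 22002897, minus strand), a paralogue active in forebrain and midbrain, read 12.1, 6.84, 15.0, 8.93 and 11.9 CPM in controls and 13.6, 9.45, 13.9, 11.2 and 18.7 CPM in p53_activated libraries. Here only p53_activated replicate 5 exceeded every control. For Otx1 the log2 fold change was 0.28 ± 0.22 (edgeR adjusted p = 0.512), with a 95% interval from 0.875-fold to 1.67-fold. It was 0.13 when p53_activated replicate 5 was left out, 0.15 for control replicate 2 and 0.43 for control replicate 3.

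The engrailed genes mark the midbrain-hindbrain border region and are needed for the tectum and cerebellum. En2 (ENSMUSG00000039095, chromosome 5, 28165694 to 28172166, plus strand) read 8.64, 6.76, 14.9, 10.6 and 9.25 CPM in controls and 13.6, 13.1, 13.9, 11.2 and 14.2 CPM in p53_activated libraries. Control replicate 3 was the highest of all 10 libraries, and the other 4 controls lay below every p53_activated library. The means were 10.03 ± 3.05 and 13.2 ± 1.19 CPM (SD, n = 5 each). The log2 fold change of En2 was 0.39 ± 0.19 (edgeR adjusted p = 0.246), 0.59 without control replicate 3 (adjusted p = 0.0536) and 0.18 without control replicates 1 and 2 (0.647). En1 (ENSMUSG00000058665, chromosome 1, 120602418 to 120607992, plus strand) read 4.55, 5.19, 8.06, 6.00 and 5.46 CPM in controls and 6.13, 6.09, 9.82, 5.63 and 7.15 CPM in p53_activated libraries. The libraries numbered 3 were the highest of their groups. En1 had a log2 fold change of 0.24 ± 0.22 (edgeR adjusted p = 0.577), which was 0.098 without p53_activated replicate 3, 0.40 without control replicate 3 and 0.087 without control replicates 1 and 2.

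Lmx1a (ENSMUSG00000026686, chromosome 1, 167689237 to 167848741, plus strand), known for the roof plate and for dopaminergic progenitors of the ventral midbrain, had the lowest coefficient of variation in controls (14.8%). It read 15.0, 11.5, 11.1, 12.6 and 10.4 CPM in controls and 15.0, 15.5, 14.7, 12.6 and 17.5 CPM in p53_activated libraries. The other 4 controls lay below every p53_activated library, and control replicate 1 lay among them. The means were 12.1 ± 1.798 and 15.1 ± 1.75 CPM (SD, n = 5 each). For Lmx1a this gave a log2 fold change of 0.31 ± 0.15 (edgeR adjusted p = 0.225). Lmx1b (ENSMUSG00000038765, chromosome 2, 33560965 to 33640511, minus strand), needed at the isthmus and in the eye and limb, behaved differently. It read 3.58, 5.03, 4.90, 3.57 and 4.15 CPM in controls and 1.79, 5.09, 5.04, 8.63 and 8.81 CPM in p53_activated libraries. Replicate 1 of the p53_activated group was the lowest of all 10 libraries, and its replicates 4 and 5 were the highest. The coefficient of variation was 16.4% in controls and 49.8% in p53_activated libraries. The log2 fold change of Lmx1b was 0.47 ± 0.33 (edgeR adjusted p = 0.441) and turned to -0.08 without p53_activated replicates 4 and 5 (adjusted p = 0.929). With 1 of these left out it was 0.29 or 0.30.

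Pax2, Pax5 and Pax8 form 1 subfamily and are switched on in succession at the border region. Pax5 (ENSMUSG00000014030, chromosome 4, 44524757 to 44710487, minus strand), also known from B lymphocytes, read 24.1, 14.0, 28.4, 15.7 and 16.3 CPM in controls and 31.0, 16.6, 39.4, 19.4 and 28.4 CPM in p53_activated libraries. The groups overlapped over most of their range, and 2 p53_activated libraries exceeded every control. Pax5 had a log2 fold change of 0.44 ± 0.25 (edgeR adjusted p = 0.326), which was 0.28 with p53_activated replicate 3 left out. Among B lymphocyte genes, Cd79a was under the filter, and Cd79b read a mean of 1.36 CPM in controls and 1.31 CPM in p53_activated libraries. Ebf1, which is also active outside that lineage, fell (-0.76 ± 0.19, edgeR adjusted p = 0.0259). Leaving out 1 library at a time ended the Ebf1 call (adjusted p 0.0579 to 0.0733) for control replicates 1, 2 and 4 and p53_activated replicates 3 and 5, and leaving out the pair of control replicates 1 and 2 gave 0.147.

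Pax2 (ENSMUSG00000004231, chromosome 19, 44756045 to 44837871, plus strand), the earliest of the subfamily at the border and also a gene of ear, eye and kidney, was scarce and uneven. It had 4, 14, 23, 19 and 16 counts in controls (0.227, 1.101, 0.955, 1.21 and 1.17 CPM) and 5, 23, 14, 111 and 34 in p53_activated libraries (0.344, 1.21, 0.916, 3.65 and 2.36 CPM). Of its 263 counts, 111 came from p53_activated replicate 4. The log2 fold change of Pax2 was 0.89 ± 0.57 (edgeR adjusted p = 0.386), with a 95% interval from 0.802-fold to 4.29-fold, and it was 0.38 without replicate 4 of that group and turned to -0.15 without p53_activated replicates 4 and 5 (adjusted p = 0.929). Epithelial and eye markers were also higher in these than in the other p53_activated libraries. Control replicates 4 and 5 had higher epithelial sums (160 and 162 CPM) and like eye sums (26.8 and 29.7 CPM), with Pax2 at 1.21 and 1.17 CPM. Summed inner ear markers ran from 53.9 to 90.5 CPM in controls and from 61.4 to 85.1 CPM in p53_activated libraries, most of it from Sox9, which is active in many tissues. Oc90, a gene of the ear vesicle, read 3.35, 1.49, 0.581, 7.40 and 8.01 CPM in controls and 0.206, 1.73, 0.589, 4.91 and 1.53 CPM in p53_activated libraries. It was thus highest of its group in p53_activated replicate 4, as Pax2 was, and higher still in control replicates 4 and 5. The part of these tissues in the Pax2 value was not tested. Pax8 (ENSMUSG00000026976, chromosome 2, 24420560 to 24475599, minus strand) had 0, 3, 8, 9 and 4 counts in controls and 8, 2, 9, 14 and 6 in p53_activated libraries. At this depth no difference in Pax8 could be read.

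Pax6 (ENSMUSG00000027168, chromosome 2, 105668900 to 105697364, plus strand), a gene largely kept out of the midbrain, had the highest counts of the set and the smallest fitted difference. It read 12.2, 18.8, 44.9, 34.0 and 42.1 CPM in controls and 33.7, 17.0, 32.9, 28.8 and 45.0 CPM in p53_activated libraries. Control replicates 1 and 2 and p53_activated replicate 2 were low, and the remaining 7 libraries lay between 28.8 and 45.0 CPM. The means were 30.4 ± 14.4 and 31.5 ± 10.1 CPM (SD, n = 5 each). The log2 fold change of Pax6 was 0.05 ± 0.36 (edgeR adjusted p = 0.961). Its 95% interval ran from 0.589-fold to 1.81-fold. Without control replicates 1 and 2 it turned to -0.36 (adjusted p = 0.465). Those controls also had the lowest summed pan-neural markers of their group (1036 and 911 CPM against 1251 to 1365 CPM). In the p53_activated group the sum was 1212 CPM in replicate 2, where Pax6 was low. It was lowest in replicate 4 (1015 CPM), where Pax6 read 28.8 CPM. Most of the sum came from Nes (means 821 CPM in controls and 898 CPM in p53_activated libraries). The part of these sums in the Pax6 value was not tested.

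**Figure D2:**
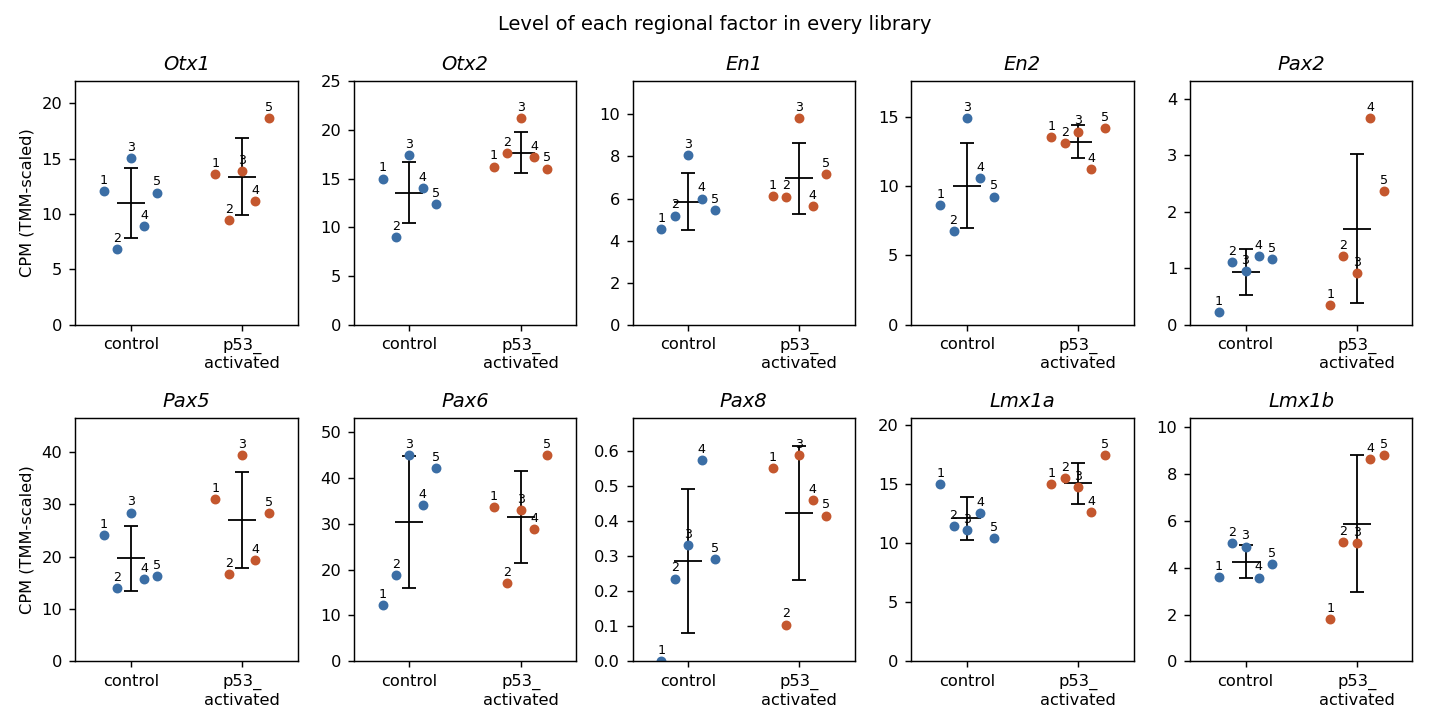
CPM (vertical axis, from 0) of each regional factor in the 5 control (blue) and 5 p53_activated (orange) libraries; numbers give the replicate, and black lines the mean ± SD. The groups overlap in every panel, control replicate 3 lies highest of its group for Otx1, Otx2, En1, En2, Pax5 and Pax6, and Pax2 and Lmx1b spread most in the p53_activated group.

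Levels of different genes were compared as CPM per kilobase of annotated exon, joined over all annotated transcripts of a gene. This length was 11694 bases for Pax6, 8853 for Pax5 and 3396 for Lmx1a. Which transcripts these cells made was not tested, and the order depends on it. In control libraries Lmx1a stood highest at 3.57 ± 0.53, followed by Otx2 at 3.21 ± 0.75, En2 at 2.83 ± 0.86 and Pax6 at 2.60 ± 1.23 CPM per kilobase (SD, n = 5). En1 (2.23 ± 0.51), Pax5 (2.22 ± 0.70) and Otx1 (2.02 ± 0.58 CPM per kilobase) came next. The ranges over control libraries overlapped between every pair of neighbours in that part of the order. Lmx1b was lower, with control libraries between 0.732 and 1.03 CPM per kilobase against 1.26 to 2.77 for Otx1. Pax2 was lower again (0.042 to 0.224), and Pax8 (0 to 0.0947) overlapped it. In p53_activated libraries Lmx1a (4.44 ± 0.51), Otx2 (4.19 ± 0.50) and En2 (3.73 ± 0.33) again led, and Lmx1b (1.20 ± 0.60), Pax2 (0.314 ± 0.244) and Pax8 (0.070 ± 0.032 CPM per kilobase) again closed the order.

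The factors differed in how they varied from embryo to embryo. Otx2 and En2 were the most alike, with a mean absolute difference of 0.14 between their log2 CPM over the 10 libraries after each gene was centred on its own mean. En1 and En2 followed at 0.19, then Otx1 and En2 and Otx1 and Pax5, both at 0.21 to 0.22. Control replicate 2 was low for Otx1, Otx2, En2 and Pax5 at once (-0.77, -0.76, -0.73 and -0.65). Pax2 was least like Pax5 (1.04), its own subfamily member, and most like Lmx1b (0.39). Both Pax2 and Lmx1b were low in p53_activated replicate 1 (-1.34 and -1.32) and high in replicates 4 (1.70 and 0.88) and 5 (1.09 and 0.91). These values describe shared patterns in 10 libraries and share their scaling.

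**Figure D3:**
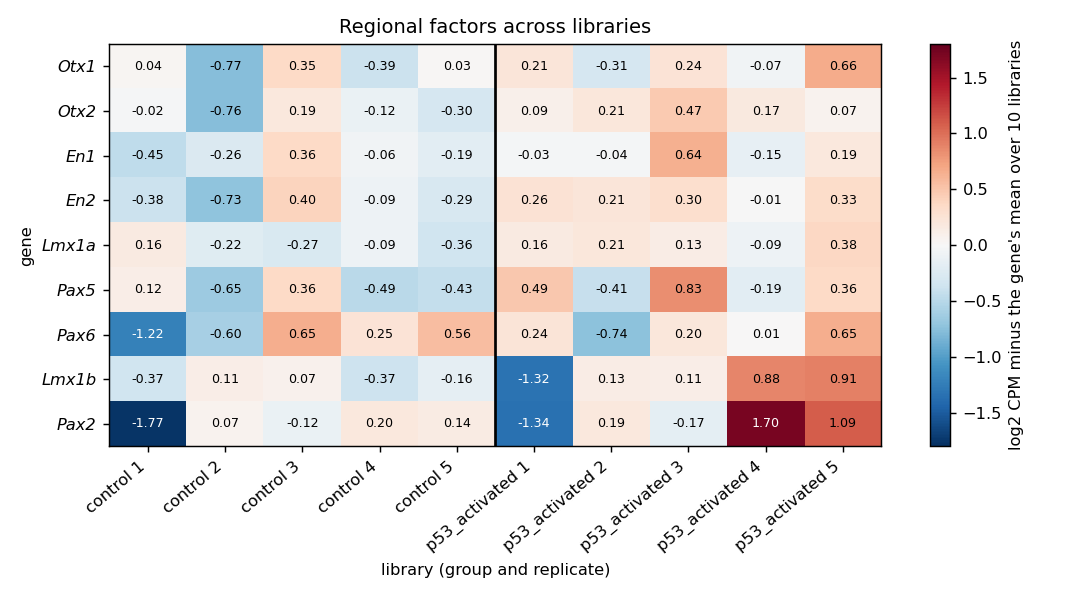
Log2 CPM of the 9 tested regional factors in each library (columns), minus the gene's mean over the 10 libraries. Control replicate 2 is blue for the Otx genes, En2 and Pax5, while Pax2 and Lmx1b (the bottom rows) share a different pattern, low in p53_activated replicate 1 and high in replicates 4 and 5.

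Members of a family were also set against each other inside each library. For the 4 pairs with both genes tested, the log2 ratio of their CPM was compared between groups with an exact two-sided permutation test over samples, whose smallest possible p is 0.00794. Otx1 to Otx2 had a mean log2 ratio of -0.32 ± 0.22 in controls and -0.43 ± 0.43 in p53_activated libraries (exact permutation p = 0.635). En1 to En2 had -0.75 ± 0.22 and -0.94 ± 0.25 (exact permutation p = 0.246). Lmx1a to Lmx1b had 1.49 ± 0.40 and 1.53 ± 0.93 (exact permutation p = 0.929), and Pax2 to Pax5 had -4.36 ± 1.145 and -4.20 ± 1.496 (exact permutation p = 0.881). Adjusted over the 4 ratios, every exact permutation p was 0.929. The log2 ratio of Lmx1a to Lmx1b in p53_activated libraries ran from 0.54 in replicate 4 to 2.999 in replicate 1.

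Of 17 signals and partners of the border, all tested, 2 rose and none fell, where 4.49% of all tested genes rose. Fitted differences were above 0 for 14 of 17, against 48.6% of all tested genes, with a median log2 fold change of 0.22. Both genes that rose act in FGF signalling. Il17rd, a membrane inhibitor of that pathway, read 18.6 to 24.04 CPM in controls and 30.6 to 41.2 CPM in p53_activated libraries, with no overlap, as for 8.07% of all tested genes (log2 fold change 0.79 ± 0.13, edgeR adjusted p = 0.00146). Etv4, an ETS factor that FGF signals switch on, read 43.4 to 49.5 CPM in controls and 59.9 to 95.1 CPM in p53_activated libraries, also with no overlap (0.77 ± 0.13, adjusted p = 0.00167). Their calls held under all 22 other settings, with adjusted p up to 0.0116 for Il17rd and 0.015 for Etv4, both without control replicates 1 and 2. Fgf8, the organiser signal, did not pass and had a fitted difference below 0 (-0.37 ± 0.25, edgeR adjusted p = 0.419). Wnt1 (0.67 ± 0.29, adjusted p = 0.201), Fgf15 (0.90 ± 0.30, 0.08) and Gbx2, the hindbrain partner of Otx2 (0.05 ± 0.18, 0.903), did not pass either. Il17rd and Etv4 are also active in embryonic tissues away from the border.

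**Figure D4:**
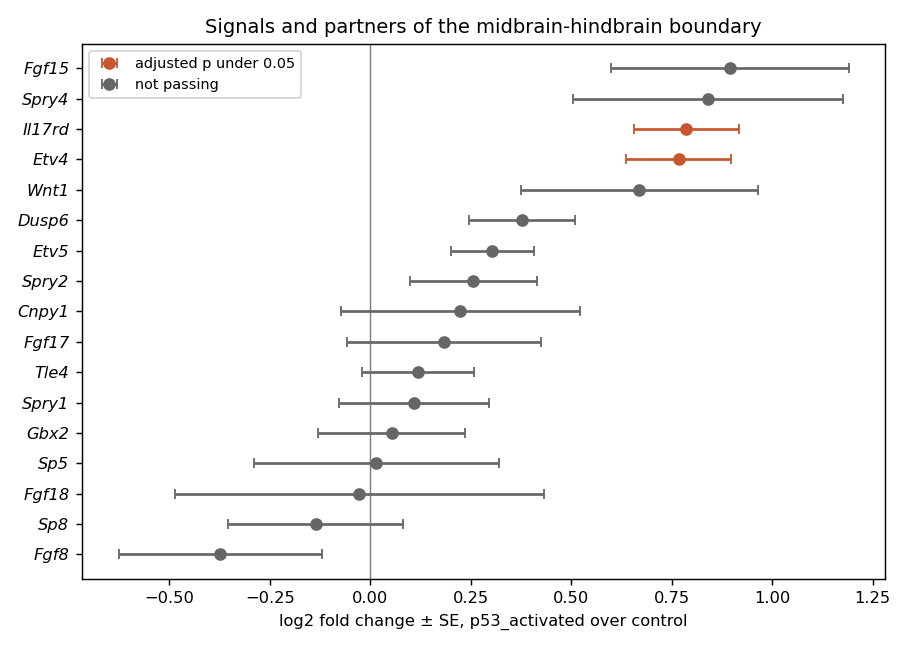
Log2 fold change ± SE from edgeR, p53_activated over control (5 libraries each), for 17 signals and partners of the midbrain-hindbrain border. Il17rd and Etv4 (orange) passed the adjusted threshold, and Fgf8 lies lowest at -0.37.

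Genes of the neighbouring territories and of the cells sorted were read against all tested genes, of which 7.23% were called by edgeR (2.74% lower), 22.6% had an unadjusted p under 0.05 and 8.07% had groups without overlap. Of 14 tested forebrain and midbrain genes 0 were called by edgeR (2 at an unadjusted p of 0.05, Pax7 and Six3; median log2 fold change 0.00046). Pax7, a dorsal midbrain gene, stood at 0.61 ± 0.21 (edgeR adjusted p = 0.0986) and Six3, a forebrain gene, at -0.75 ± 0.33 (0.189). Of 12 tested floor plate and dopaminergic genes Pitx3 fell, from 2.03 ± 0.97 to 0.327 ± 0.237 CPM (-2.55 ± 0.60, edgeR adjusted p = 0.0172), a call lost without control replicate 2 (0.0522), without control replicates 1 and 2 (0.117), with the replicate block (0.0543) and with limma-voom (0.0822). It had 13 to 47 counts in control libraries and 1 to 18 in p53_activated libraries. Control replicate 3 (0.540 CPM) lay below p53_activated replicate 4 (0.593 CPM). Pitx3 was tested in 21 of the 22 other settings, as 1 other filter removed it. Pitx3 is also a lens gene. Of 10 tested roof plate genes 0 were called, although Wnt3a (1.105 ± 0.42, edgeR adjusted p = 0.132) and Zic2 (0.57 ± 0.24, 0.167) were higher in every p53_activated library than in every control. Control replicates 1 and 2 were lowest for both (Wnt3a 0.739 and 0.786 CPM, Zic2 3.98 and 3.15 CPM). The other controls reached 4.40 CPM for Wnt3a and 7.58 CPM for Zic2, and the lowest p53_activated libraries read 4.62 and 7.79 CPM. Of 10 pan-neural genes 7 had fitted differences above 0 (median log2 fold change 0.09). Fabp7, also a glial gene, was the only 1 called and fell (-0.78 ± 0.16, edgeR adjusted p = 0.00767). Without control replicates 1 and 2 its edgeR adjusted p was 0.0511. Sox2 stood at -0.0031 ± 0.24. Of 11 crest and mesenchyme genes Prrx2 fell (-0.41 ± 0.11, edgeR adjusted p = 0.0386), a call lost under 11 of 22 other settings (up to 0.196), among them 7 of the 10 fits that leave out 1 library; the exceptions are those leaving out control 4, control 5 or p53_activated 1.

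The genes whose pattern over the 10 libraries was most like each factor were taken by the same mean absolute difference. Pax6 was closest to 6030442K20Rik (0.15), Naa15 (0.16) and Sox3 (0.19), the last a neural progenitor gene. En2 was closest to Adcyap1r1 (0.10), Pim1 (0.11) and Sall4 (0.12), and En1 to Pcdh8 (0.10), Tdp1 (0.11) and Vars (0.11). Otx2 was closest to Ier2 (0.12) and mt-Rnr1 (0.13) among the genes reported, and Otx1 to Zfp408 (0.14), Zfp120 (0.16) and Map4k1 (0.17). Pax5 was closest to Nr4a1 (0.18), Zfp408 (0.18) and Rps15a-ps6 (0.21). Lmx1a was closest to Fbxl18 (0.08), Fam178a (0.08) and Zbtb44 (0.09), and Lmx1b to Cit (0.21), Braf (0.22) and Iqgap3 (0.22). For Pax2 the nearest genes were farther off (Nupl1 and Lrmp at 0.34, Yipf2 at 0.35).

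RefSeq on GRCm38.p6 gave windows of 300 bases around start sites for 8 of the 10 factors, 14 windows in all; En2 and Otx1 had none. The p53 half-site was found in 0 of the 14 and in 8.36% of all 32851 windows. The homeodomain core TAATTA, a letter pattern that reads the same on both strands, was in 2 of the 14, both of Otx2, and in 5.29% of all. The GC box GGGCGG, read on both strands, was in 5 of the 14 (Pax2, Pax5, Pax8 and Lmx1a) and in 35.7% of all. TATAAA was in 1 of the 14 and in 13.6% of all, and TAATCC, the bicoid-type core that Otx proteins bind, in 1 of the 14 and in 7.06%. A match describes letters only. Shown are stretches of 240 bases that end 10 bases before a start site and hold no annotated exon base. They are 1 of the RefSeq starts of Otx2, the factor with the lowest p, the RefSeq start of Lmx1a, the next lowest, and a RefSeq start of Pax6, the highest, in lower case with matches in capitals. The Otx2 and Lmx1a stretches lie inside the positions given above for these genes, so other annotated starts lie upstream of them.
Otx2, chr14:48667655-48667894, minus strand: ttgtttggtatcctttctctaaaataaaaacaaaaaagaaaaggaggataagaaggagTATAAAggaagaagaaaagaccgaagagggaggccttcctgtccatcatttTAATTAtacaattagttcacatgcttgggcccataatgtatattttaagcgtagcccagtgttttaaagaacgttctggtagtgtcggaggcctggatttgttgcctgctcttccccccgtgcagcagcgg
Lmx1a, chr1:167689308-167689547, plus strand: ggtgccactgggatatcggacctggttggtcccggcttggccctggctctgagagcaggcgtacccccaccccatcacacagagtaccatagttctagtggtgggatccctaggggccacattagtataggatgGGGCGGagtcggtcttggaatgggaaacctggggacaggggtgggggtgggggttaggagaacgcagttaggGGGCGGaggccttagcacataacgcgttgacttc
Pax6, chr2:105668646-105668885, plus strand: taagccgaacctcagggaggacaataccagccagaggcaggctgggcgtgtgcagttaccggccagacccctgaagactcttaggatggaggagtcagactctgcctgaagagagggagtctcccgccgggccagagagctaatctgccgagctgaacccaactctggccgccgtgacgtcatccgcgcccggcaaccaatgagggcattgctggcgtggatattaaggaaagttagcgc
The Otx2 stretch held a TATAAA and a TAATTA, the Lmx1a stretch a pair of GGGCGG, and the Pax6 stretch none of the patterns searched.

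Overlapping genes touched few of the exon bases. Exons of other annotated genes covered 8.60% of those of Pax5, 6.06% of Pax8 and 3.98% of Otx2, and none of the other 7. Otx2os1, the antisense neighbour of Otx2, had 661 counts over all libraries against 2838 for Otx2, and its log2 fold change was 0.07 ± 0.40 (edgeR adjusted p = 0.944). The antisense transcript 5730488B01Rik, which shares 7.18% of the exon bases of Pax5, had 205 counts against 4121 for Pax5. Since the strand setting of the counting is not given in the sources used here, reads from such shared bases cannot be assigned to a strand.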

How the data were processed

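Raw read counts for each Ensembl gene were deposited by the authors in 1 table. Each column was tied to a library through the sample description. Tools listed in the submitters' processing notes, without their roles, are DESeq2 1.14.1, HTSeq 0.6.1, SAMtools 1.3.1 and HISAT2 2.0.4, with the build GRCm38. Annotation release and strand setting: not given in the sources used here. Per the file headers, the authors' deposited comparison table holds p-values, log2 fold changes and their errors, Wald statistics (a score) and mean normalized counts (a signal).

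Counts were tested with edgeR 4.0.16 in R 4.3.3 (quasi-likelihood, robust, TMM, all 10 libraries, no covariate). Genes were kept by filterByExpr (minimum count 10, minimum total 15), which left 14528. P was adjusted by Benjamini-Hochberg over these, with a threshold of 0.05. The SE of a log2 fold change is its size divided by the square root of F, and its 95% interval uses the fit's degrees of freedom. CPM are TMM-scaled, log2 CPM used a prior count of 2, and ratios added 0.1 CPM to each gene. The fit was tested on simulated data, with changes set in genes not near the floor. Each size of change was set in 66 or 67 genes, none as scarce as Pax2. It recovered 34.3% of 1.5-fold, 83.6% of 2-fold and 97% of 4-fold changes, with 9 false calls among 152. Most changes of 1.5-fold were thus missed in the simulation. The data gave 1050 calls, so the adjusted threshold was stricter in the simulation, and recovery in the data was not measured. Positions and exon lengths are from GENCODE M21, in which 99.3% of the identifiers were found.

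The members, the gene lists and the settings were chosen with earlier results of these data known. Named genes are all members, Cdkn1a, the called genes or lowest p of each list, the 3 genes most like each member and overlapping genes. Fgf8, Gbx2 and Sox2 were named after their values were seen. Each library came from a different embryo, so replicates are biological. Every pair of libraries differed by more than sampling noise (chi-square of 16.3 to 79.6 per degree of freedom). Alternatives were other scaling, filters, DESeq2 1.42.0, limma-voom 3.58.1, non-robust dispersions, a term for the replicate number or for embryo sex (2 of 5 controls and 3 of 5 p53_activated embryos female by Xist and Y-linked genes), and leaving out libraries. The same settings for the other lists were added after the data were seen. Some genes of the lists and of the likeness search are not reported here.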

Additional observations from a re-analysis of the deposited data

Results flagged for a closer look

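Of the 20 sets of 5 libraries (10 genes in each group), 1 held a library far from the others, where chance gives about 1 in 20. Pax2 read 0.227 CPM in control replicate 1 (4 counts), while the other controls lay between 0.955 and 1.21 CPM. The gap to the nearest control was 0.739 of the group's whole range, above the critical value of 0.71. Pax6 was also lowest in that library.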

How the results depend on the processing

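In all 22 other settings 0 of the regional factors were called in either direction. All 9 fitted differences were above 0 under each other scaling, filter and tool. The direction of Pax6 turned when single libraries were left out (log2 fold change from -0.16 to 0.24), without control replicates 1 and 2 (-0.36) and without p53_activated replicates 4 and 5 (-0.12). Without p53_activated replicates 4 and 5, Pax2 (-0.15) and Lmx1b (-0.079) turned too. The cause was not tested. With single libraries left out, the group difference of the log2 ratio lay between -0.33 and 0.28 for Lmx1a to Lmx1b, between -0.27 and 0.0074 for Otx1 to Otx2, between -0.30 and 0.64 for Pax2 to Pax5 and between -0.30 and -0.10 for En1 to En2. The last had its lowest adjusted exact permutation p (0.0635) without p53_activated replicate 3. The Pax2 to Pax5 difference (0.16) was -0.042 with 1 CPM added, -0.18 without control replicates 1 and 2 and -0.67 without p53_activated replicates 4 and 5. All genes called numbered 1050, 1664 with DESeq2, 656 without control replicates 1 and 2, and 636 (without control replicate 2) to 1025 with single libraries left out. Called border genes numbered 2 to 4, the most without control replicate 3. The replicate numbers did not pair the samples 1 to 1 (correlation of deviations from -0.05 to 0.11 for same-numbered libraries, 1 of 5 best with its own number). That check cannot show a difference shared by several numbers. Epithelial and erythroid sums were highest in replicates 4 and 5 of both groups. The replicate block gave 804 called genes and no called factor (lowest edgeR adjusted p = 0.082, Pax5), and its sign-flip test of the ratios cannot go below 0.0625. Depth limits Pax8 and Pax2.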
